A study of Mus musculus with 4 samples.

Results

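The 8 genes described here encode ligands and receptors of bone morphogenetic protein (BMP) signalling: Bmp2, Bmp4, Bmp6 and Bmp7 are secreted ligands, Bmpr1a, Bmpr1b and Acvr1 are type I receptors, and Bmpr2 is a type II receptor. Every probe set of the deposited table that was paired with exactly 1 of these symbols was taken, which gave 21 probe sets of 34945 with 1 symbol, for 8 of 18193 genes. No probe set was shared between a member and another gene. The aortas came from mice in which Smad4 was knocked out in smooth muscle cells (Smad4-KO) and from wild-type littermates (WT), all taken at 6 weeks of age. Each genotype had 2 Affymetrix arrays, replicate 1 and replicate 2, and each array was made from 400 ng of RNA of a pool of 3 to 5 vessels. The promoter that drove the recombinase, the deleted part of Smad4 and the sex of the mice are not stated in the labels. Which cells of the vessel wall had lost Smad4 was not measured here. A pool averages its animals, so the 2 arrays of a genotype show the spread between pools and not between mice.

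BMP ligands are dimers that bring type I and type II serine/threonine kinase receptors together on the cell surface. The type II receptor phosphorylates the type I receptor, which phosphorylates Smad1, Smad5 and Smad9, and these enter the nucleus with Smad4 to switch on genes such as those of the Id family. In vessels the pathway acts in endothelium and smooth muscle, and loss-of-function mutations of human BMPR2 cause heritable pulmonary arterial hypertension.

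Values are probe set signals on a linear scale, and differences are log2 of Smad4-KO over WT, so that a negative value means lower in Smad4-KO. Signals of different probe sets do not share a scale, so no gene's level is set against another's. The sums of marker signals below add such probe sets, so the bright ones weigh most. Each sum is set only against the same sum on other arrays. Standard errors from limma follow the ± sign and rest on 2 arrays a genotype, a number that limits the precision, and adjusted p-values are Benjamini-Hochberg values over all genes or all probe sets tested. Each gene was represented by its brightest probe set, and all 8 genes lay above the filter on low signal (a mean log2 signal of 5.64), whereas 16 of the 21 probe sets lay above the filter of the probe set fit (5.25). Array medians were 133 and 137 in Smad4-KO and 111 and 132 in WT. The 3' to 5' ratio of the Dap labelling spike was 3.62 and 14.1 in Smad4-KO (replicates 1 and 2) and 10.0 and 2.96 in WT (replicates 1 and 2), so each genotype had an array with a high ratio and an array with a low one. Differences within each such pair of arrays are given below. The brightest Smad4 probe set had signals of 2676 and 3580 in Smad4-KO and 3819 and 4394 in WT, a difference of -0.40 ± 0.32 that did not pass (limma, adjusted p = 0.626).

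Markers of some cell types differed between the genotypes in the same arrays. All 9 smooth muscle markers were measured, with a summed signal of 65410 and 72449 in Smad4-KO against 147126 and 174617 in WT, and 5 fell and 0 rose, among them Synpo2 (-2.96 ± 0.40) and Cnn1 (-2.58 ± 0.29). All 10 macrophage markers had both Smad4-KO arrays above both WT arrays and 8 rose, with summed signals of 57918 and 76229 in Smad4-KO and 9809 and 14771 in WT; Aif1 (4.34 ± 0.76) and Fcgr1 (3.79 ± 0.65) had the largest differences. All 10 nerve cell markers rose, with sums of 30521 and 41016 in Smad4-KO and 1883 and 2058 in WT, led by Snap25 (5.95 ± 0.45) and Th (5.03 ± 0.30); Elavl4 among them was tested only through its signal in Smad4-KO, as its mean in WT lay under the filter. Of 10 endothelial markers 0 passed in limma and 2 had an unadjusted p under 0.05. The median difference of the 10 was 0.42, with 3 of them negative, and the 10 summed to 9036 and 17502 in Smad4-KO and 12124 and 13764 in WT. Of 6 fibroblast markers 0 passed, with 0 at an unadjusted p under 0.05 and sums of 75739 and 113902 in Smad4-KO and 89162 and 91639 in WT. Of 3 measured Schwann cell markers 1 rose, Mbp (1.99 ± 0.32). Sums were 2561 and 3244 in Smad4-KO and 1013 and 1114 in WT, of which Mbp gave 1935 and 2665 in Smad4-KO and 554 and 587 in WT. Neither of the others passed. Sox10 had both Smad4-KO arrays below both WT arrays (-0.74 ± 0.38), and S100b had both above (0.58 ± 0.35). Fat markers (0 of 5 passed, 1 at an unadjusted p under 0.05) summed to 30688 and 61040 in Smad4-KO and 29545 and 66340 in WT. Skeletal muscle markers (0 of 4 passed, 1 at an unadjusted p under 0.05) summed to 772 and 10104 in Smad4-KO, with the higher value on replicate 2, and to 360 and 605 in WT. The calls of Synpo2, Cnn1, Fcgr1 and Mbp were lost without WT replicate 1, that of Mbp also without Smad4-KO replicate 1, and that of Aif1 without Smad4-KO replicate 2. Those of Fcgr1 (adjusted p = 0.0582) and Mbp (adjusted p = 0.0828) were also lost with the mean of probe sets, and that of Aif1 with median centring (adjusted p = 0.0516). No marker was at 0, and 2 skeletal muscle markers, Myh4 and Actn3, lay below the filter. In whole vessel wall, fewer cells of a type and less RNA per cell cannot be told apart.

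Of the 8 member genes, 1 passed the test in limma, the type I receptor gene Bmpr1b, which fell. An unadjusted p under 0.05 was reached by 3 members (Bmpr1b, Bmpr1a and Bmp6) and by 19.3% of all genes. Over all 13645 genes 1.39% were called lower and 4.92% higher, and no member was called higher. Differences were negative for 7 of the 8 members and for 50.3% of all genes. The members' median was -0.67, against -0.01 for all genes tested. In 4 members both Smad4-KO arrays were below both WT arrays (Bmp6, Bmpr1a, Bmpr1b and Bmpr2), a position that 21.4% of all genes shared, and in 1 member above both (Bmp2), as for 25.9% of all genes. The 4 receptor genes had a median of -0.94 and the 4 ligand genes one of -0.48. The difference between ligands and receptors was not tested. Without WT replicate 2 limma called 0 of all genes, members and markers included, with 1791 at an unadjusted p under 0.05, and it also called 0 with genes of low signal kept (2788) and with the labelling pairs as a block (2658).

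**Figure D1:**
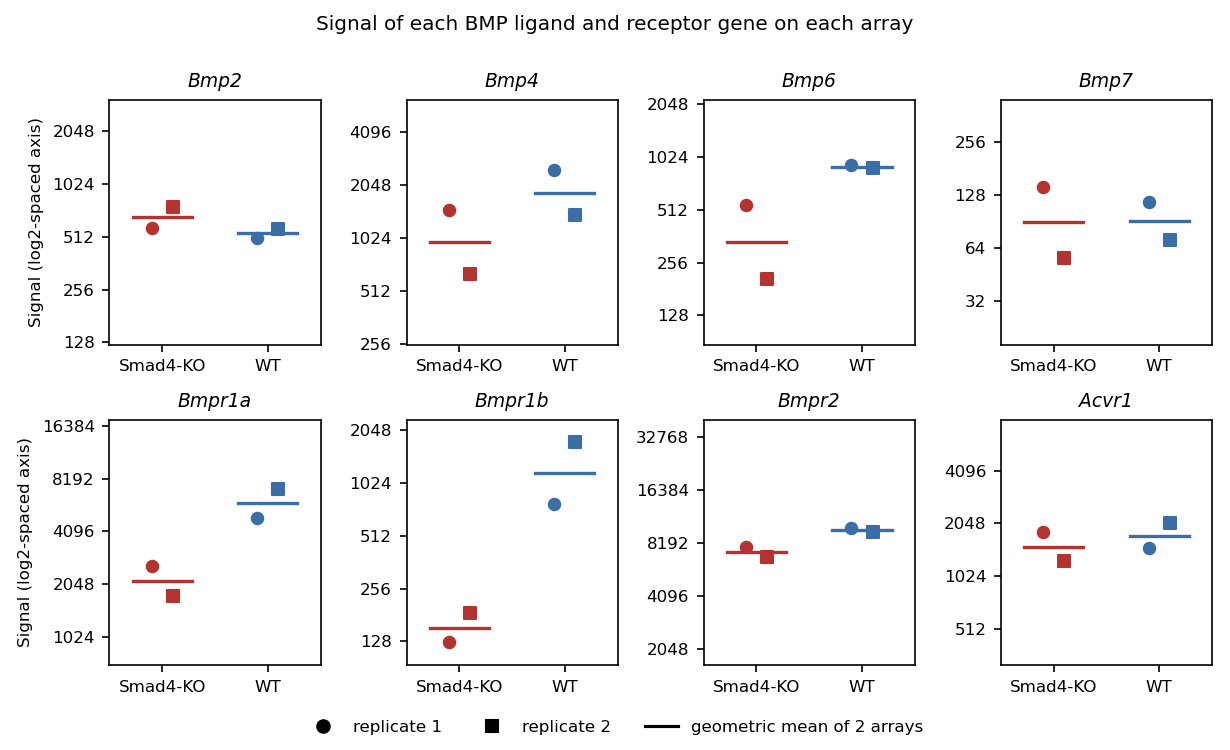
Signal on each array of the brightest probe set of the 8 genes, on log2-spaced axes that span the same fold range in each panel; points are arrays and lines geometric means of 2 arrays. Bmpr1b lies at 126 and 186 in Smad4-KO and at 783 and 1751 in WT, and Bmpr1a, Bmp6 and Bmpr2 also show both Smad4-KO arrays below both WT arrays.

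Bmpr1b, the type I receptor also called ALK6, is best known from cartilage, limb and ovary. Its brightest probe set read 126 and 186 in Smad4-KO and 783 and 1751 in WT. Both Smad4-KO arrays lay far below both WT arrays, and the WT arrays differed from each other more than the Smad4-KO arrays did. The gene fell 7.63-fold, a log2 difference of -2.93 ± 0.48 (95% interval -4.15 to -1.72; limma, adjusted p = 0.0316), and of 13645 genes it had the 34th lowest difference. Within the pairs of arrays alike in labelling it was -3.79 (low 3' to 5' ratio) and -2.07 (high ratio). The other Bmpr1b probe sets were dim and lay below the filter: 1422872_at read 13.0 and 18.0 in Smad4-KO and 43.2 and 45.1 in WT, and 1443720_s_at read 11.2 and 24.8 in Smad4-KO and 22.0 and 40.4 in WT. For the first of these the genotypes did not overlap, and for the second they did. The call was lost when all probe sets of the gene were averaged (-1.77, adjusted p = 0.0731), when genes of low signal were kept (adjusted p = 0.114), with the labelling pairs as a block (adjusted p = 0.0923), without WT replicate 2 (-2.35, adjusted p = 0.124) and without Smad4-KO replicate 1 (-2.65, adjusted p = 0.0668). In the fit of every probe set, where 0.782% of 26209 probe sets were called (0.702% higher and 0.0801% lower), 0 of the 16 member probe sets passed in limma, 5 had an unadjusted p under 0.05 (14.1% of all probe sets did), and Bmpr1b came closest (adjusted p = 0.0861). Smooth muscle markers were lower in the same arrays (median -1.82); their part in the fall of Bmpr1b was not tested.

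The genes most like Bmpr1b over the 4 arrays, with genes of provisional symbols left out, were Zfp612 (distance 0.46), Itga9 (0.50) and Phex (0.51). The distance was taken between log2 values centred on each gene's mean. Zfp612, which encodes a zinc finger protein, had a difference of -3.27 (adjusted p = 0.0167 in limma). Itga9, an integrin subunit, had one of -2.81 that did not pass (adjusted p = 0.0555), and Phex, a membrane endopeptidase of bone known for phosphate balance, one of -3.07 (adjusted p = 0.0165). A distance over 4 arrays is a description and carries no test.

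Bmpr1a, the type I receptor ALK3, which is expressed in most tissues and needed for early development in the mouse, had 6 probe sets. Its brightest, 1425492_at, read 1764 and 2589 in Smad4-KO and 4908 and 7132 in WT. The groups did not overlap, and the log2 difference was -1.47 ± 0.37 (2.77-fold lower, 95% interval -2.40 to -0.54), which did not pass (limma, adjusted p = 0.0914). The difference was -1.46 and -1.48 in the labelling pairs, and -0.92 and -2.02 in the pairs that share replicate number 1 and replicate number 2. The second probe set, 1425494_s_at, read 454 and 664 in Smad4-KO and 1446 and 1687 in WT, and the third, 1425493_at, read 461 and 649 in Smad4-KO and 1074 and 1974 in WT. Both show the same order of arrays by genotype, with differences of -1.51 ± 0.37 and -1.41 ± 0.45 in the probe set fit (adjusted p = 0.161 and adjusted p = 0.264). Probe set 1451729_at read 138 and 201 in Smad4-KO and 242 and 513 in WT, again without overlap (-1.08 ± 0.50). Only 1425491_at overlapped, with 200 and 535 in Smad4-KO and 456 and 895 in WT. The dimmest, 1445413_at, read 2.14 and 5.46 in Smad4-KO and 6.77 and 40.9 in WT and was not tested. Thus all 5 tested Bmpr1a probe sets had negative differences, 4 of them without overlap. Over all probe sets tested, 52.1% were negative and 20.1% had both Smad4-KO arrays below both WT arrays. The untested, dimmest probe set was also negative without overlap. The probe sets were hybridised with the same 4 samples and 5 of the 6 carry the same source accession, so they are not independent measurements of the gene. Over 15 alternatives Bmpr1a did not pass at an adjusted p of 0.05 (adjusted p from 0.0598 to 0.409).

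**Figure D2:**
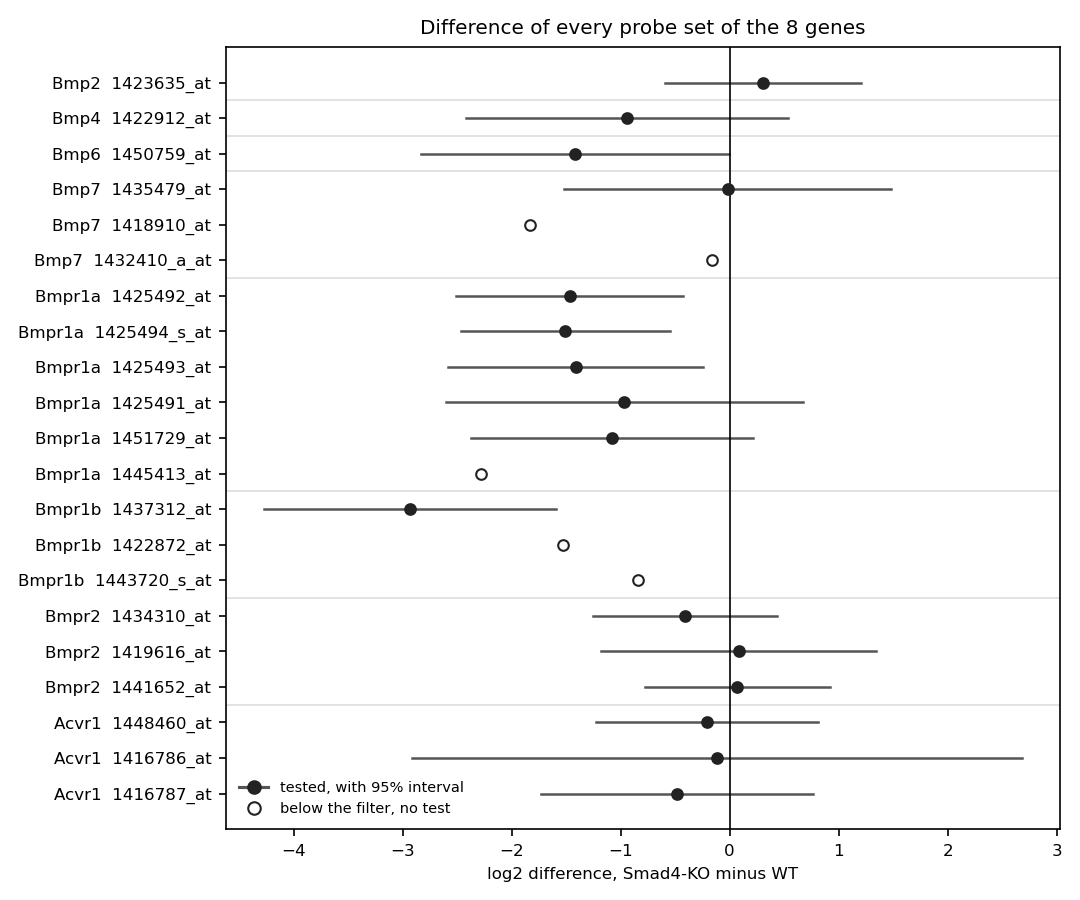
Log2 difference (Smad4-KO minus WT) of all 21 probe sets of the 8 genes, brightest in WT first within each gene; filled points with bars are the 16 tested probe sets with 95% intervals from limma, open points the 5 below the filter. All Bmpr1a and Bmpr1b probe sets lie left of 0, from -0.84 to -2.93, while the Bmpr2 and Acvr1 probe sets lie between -0.49 and 0.08.

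For the type I receptor genes with the lowest differences the promoters are shown as the 250 bases before an annotated start in RefSeq (GRCm38.p6). Of the 8 members 6 have an entry in that table, Bmpr1b with 3 starts, of which the start farthest upstream is shown, and the arrays do not tell which start was in use. Capitals mark GGCGCC, a GC-rich motif bound by Smad proteins of the BMP branch, and CAGAC or its reverse complement GTCTG, which hold the Smad box.
Bmpr1b (chr3:141982265-141982514, minus strand): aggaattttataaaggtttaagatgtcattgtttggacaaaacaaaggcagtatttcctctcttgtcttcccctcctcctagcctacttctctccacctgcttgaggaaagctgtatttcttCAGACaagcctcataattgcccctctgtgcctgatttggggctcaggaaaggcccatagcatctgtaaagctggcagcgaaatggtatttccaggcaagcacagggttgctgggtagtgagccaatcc
Bmpr1a (chr14:34502547-34502796, minus strand): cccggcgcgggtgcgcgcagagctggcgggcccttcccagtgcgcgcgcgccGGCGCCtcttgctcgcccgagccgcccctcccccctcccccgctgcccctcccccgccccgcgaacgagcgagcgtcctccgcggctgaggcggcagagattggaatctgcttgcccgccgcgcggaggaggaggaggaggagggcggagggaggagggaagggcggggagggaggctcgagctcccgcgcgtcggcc
The Bmpr1b window shown is 46.8% G or C and holds 1 CpG, and the Bmpr1a window is 78.8% G or C and holds 36, against medians of 52.4% and 6 over 32851 promoter windows of this length. The windows of the other Bmpr1b starts are 56.4% and 52.8% G or C with 5 CpG each, close to those medians, and 1 of them holds CAGAC or GTCTG and the other neither. The Bmpr1b window shown holds CAGAC once, on the strand shown, and no GGCGCC, and the Bmpr1a window holds GGCGCC once and no CAGAC on either strand. CAGAC on either strand occurs in 42.2% of all these windows, GGCGCC in 9.59% and the palindrome GTCTAGAC, absent from both, in 0.167%. The 2 motifs marked do not overlap in these windows. A match to letters is no evidence of binding.

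Bmpr2, the main type II receptor for BMPs in vessels, and Acvr1, the type I receptor ALK2, had small differences. Bmpr2 read 6843 and 7762 in Smad4-KO and 9396 and 9964 in WT with its brightest probe set. The replicates were close and the genotypes did not overlap, but the difference was -0.41 ± 0.29 (1.33-fold lower, 95% interval -1.15 to 0.33) and did not pass (limma, adjusted p = 0.579). The other Bmpr2 probe sets overlapped: 1419616_at read 163 and 257 in Smad4-KO and 139 and 269 in WT (0.08 ± 0.49), and 1441652_at read 141 and 167 in Smad4-KO and 146 and 146 in WT (0.07 ± 0.33). Both of these small positive values turned negative with quantile normalization and with median centring. Acvr1 read 1244 and 1826 in Smad4-KO and 1483 and 2048 in WT with its brightest probe set. The genotypes overlapped (-0.21 ± 0.36, 95% interval -1.12 to 0.70; limma, adjusted p = 0.857), and the sign turned without WT replicate 2 (0.02) and without Smad4-KO replicate 2 (0.07). The interval of Acvr1 includes a fall of 1 on the log2 scale, so a fall of that size could not be told from no change with 2 arrays a genotype, and the same holds for Bmpr2.

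Among the ligands, Bmp6 had the lowest difference. Bmp6 is produced by endothelium and, in the liver, drives hepcidin expression in response to iron. It read 207 and 548 in Smad4-KO and 884 and 917 in WT. The WT arrays nearly coincided, both Smad4-KO arrays lay below them, and the lower value was on Smad4-KO replicate 2. The difference was -1.42 ± 0.51 (2.67-fold lower, 95% interval -2.70 to -0.13) and did not pass (limma, adjusted p = 0.212). Without Smad4-KO replicate 1 it was -2.12 and passed (adjusted p = 0.0426, which ran from 0.0426 to 0.503 over its 15 alternatives), and without Smad4-KO replicate 2 it was -0.72 (adjusted p = 0.403).

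Bmp4, a ligand made by mesenchyme, endothelium and many other tissues, read 636 and 1476 in Smad4-KO and 1378 and 2508 in WT. The higher Smad4-KO array lay above the lower WT array, so the genotypes overlapped, and the difference was -0.94 ± 0.53 (95% interval -2.28 to 0.40; limma, adjusted p = 0.451). In the labelling pairs it was 0.10 (low ratio) and -1.98 (high ratio), so its sign differed between those pairs. Without Smad4-KO replicate 2 the difference was -0.33. Smad4-KO replicate 2 was the lowest of the 4 arrays for 6 of the 8 members: Bmp4, Bmp6, Bmp7, Bmpr1a, Bmpr2 and Acvr1. The share of all genes with their lowest value on that array was not counted, so the number is not read as a trait of the members. That array had the highest 3' to 5' ratio of the labelling spike (14.1). On it the endothelial markers had their lowest sum (9036), and the skeletal muscle (10104), macrophage (76229) and fibroblast (113902) markers their highest. The part of the ratio and of these cell types in the members' values was not tested.

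Bmp2, a ligand close in sequence to Bmp4 and inducible in endothelium by inflammatory cytokines, was the member with a positive difference. It read 576 and 760 in Smad4-KO and 507 and 565 in WT. Both Smad4-KO arrays lay just above both WT arrays, by 0.03 on the log2 scale at the closest pair, and the difference of 0.31 ± 0.32 (1.24-fold, 95% interval -0.49 to 1.10) did not pass (limma, adjusted p = 0.725). The macrophage markers had a median of 2.79 on the same arrays, and their part in this value was not tested. Bmp7, a ligand known for its role in kidney development, read 56.5 and 143 in Smad4-KO and 71.3 and 117 in WT with its brightest probe set, the Smad4-KO arrays lying on either side of the WT arrays (-0.02 ± 0.54; adjusted p = 0.993). Its sign turned with signals under 64 raised to 64 (0.07), without WT replicate 1 (0.34) and without Smad4-KO replicate 2 (0.65). The other Bmp7 probe sets lay below the filter: 1418910_at read 3.93 and 44.6 in Smad4-KO and 45.9 and 48.7 in WT, and 1432410_a_at read 2.13 and 4.54 in Smad4-KO and 2.87 and 4.22 in WT.

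**Figure D3:**
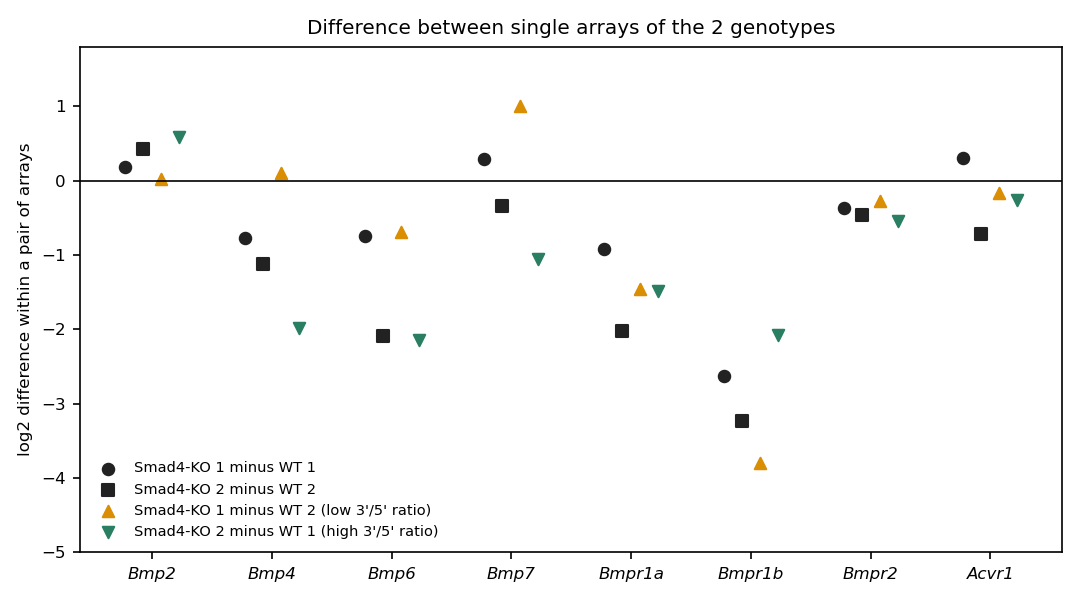
Log2 difference between single arrays (a Smad4-KO array minus a WT array) for the brightest probe set of each gene; black symbols pair arrays by replicate number, and coloured triangles pair arrays alike in the 3' to 5' ratio of the labelling spike. Bmpr1b, Bmpr1a, Bmp6 and Bmpr2 are negative in all 4 pairs, Bmp2 is positive in all 4, and Bmp4, Bmp7 and Acvr1 have both signs.

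The other genes of the pathway were described from a list of 48 by role, of which 44 were on the array and 34 lay above the filter. Of the 34, 2 rose, 3 fell and 29 did not pass in limma, where 6.31% of all genes were called, and their median was -0.21 against -0.01 for all genes. Groups did not overlap for 27 of the 34 (79.4%), against 47.3% of all genes tested. The 27 include Gdf2 and Grem1, which passed the filter only through their signal in Smad4-KO. The targets downstream of the receptors that passed were lower, and the extracellular binders that passed were higher. Without WT replicate 1 or without WT replicate 2 none of the 34 was called, nor with genes of low signal kept or with the labelling pairs as a block, and without Smad4-KO replicate 2 the 3 falls were lost.

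Of the 10 extracellular binders tested, 2 rose and 0 fell, where 4.92% of all genes were called higher and 1.39% lower. An unadjusted p under 0.05 was reached by 6 of the 10 and by 19.3% of all genes. Of the 6, Twsg1 had a negative difference. Bmper, Sostdc1, Grem1, Chrdl1 (1.34, adjusted p = 0.0759 in limma) and Fst (1.18, adjusted p = 0.116 in limma) had positive ones. Neither Chrdl1 nor Fst passed. Bmper, a secreted BMP-binding protein of endothelium, read 1589 and 2227 in Smad4-KO and 293 and 401 in WT (2.46 ± 0.35, 5.49-fold, adjusted p = 0.0224 in limma). Sostdc1, a secreted antagonist of BMP and Wnt ligands, read 723 and 804 in Smad4-KO and 149 and 178 in WT (2.23 ± 0.30, 4.68-fold, adjusted p = 0.0205). For both genes the Smad4-KO arrays lay well above the WT arrays. The remaining members had differences between -1.51 (Twsg1) and 1.94 (Grem1), 2 genes named after their values were seen, and neither passed (adjusted p = 0.15 and adjusted p = 0.139). Grem1 read 111 and 229 in Smad4-KO and 26.3 and 65.1 in WT, and as its mean log2 signal in WT (5.37) lay under the filter, it was tested only through its signal in Smad4-KO. The list's median was 0.75, and 0.32 over the 9 binders without Grem1. The macrophage and nerve cell markers had medians of 2.79 and 4.56 on the same arrays, and their part was not tested.

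Of the inhibitory Smads and Smurfs, 1 of 4 fell: Smad6, an intracellular inhibitor of BMP receptors that BMP itself induces, read 187 and 275 in Smad4-KO and 807 and 1063 in WT (-2.03 ± 0.36, 4.08-fold lower, adjusted p = 0.0361 in limma). Of 7 BMP target genes tested, 2 fell and 0 rose, where 1.39% of all genes were called lower, and their median was -0.98. An unadjusted p under 0.05 was reached by 5 of the 7 and by 19.3% of all genes. Those 5 include Id1 (-1.57 ± 0.32, adjusted p = 0.0533 in limma), Id3 (-0.98 ± 0.31, adjusted p = 0.159) and Id2 (-0.85 ± 0.33, adjusted p = 0.243). The others had differences of -0.55 (Msx1) and 0.29 (Hey1). The called targets were Atoh8 and Id4. Atoh8, a transcription factor, read 51.1 and 60.3 in Smad4-KO and 204 and 284 in WT (-2.12 ± 0.33, adjusted p = 0.0276). Id4, which binds and blocks basic helix-loop-helix factors, read 618 and 621 in Smad4-KO and 2147 and 2292 in WT (-1.84 ± 0.29, adjusted p = 0.0282). In Smad6, Atoh8 and Id4 both Smad4-KO arrays lay far below both WT arrays. Id4 was also lost without Smad4-KO replicate 1 (adjusted p = 0.0616), and with the mean of probe sets Id4 (adjusted p = 0.0725) and Smad6 (adjusted p = 0.0532) were lost. Smooth muscle markers were lower in the same arrays (median -1.82), and their part was not tested.

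The remaining lists had no call in limma. Of the 8 other receptors and co-receptors 1 had an unadjusted p under 0.05: Bambi, a pseudoreceptor that lacks the kinase domain, read 253 and 369 in Smad4-KO and 604 and 1102 in WT (-1.42 ± 0.42, adjusted p = 0.138). Next came the type II receptor gene Acvr2b (-0.44 ± 0.33, adjusted p = 0.594), and the list's median was -0.18. Of 10 other ligands only 2 lay above the filter, Gdf2 (the circulating ligand BMP9, made in liver) and Bmp5, and both had an unadjusted p under 0.05. Gdf2 read 152 and 198 in Smad4-KO and 30.6 and 60.7 in WT (2.01 ± 0.43, adjusted p = 0.0605), and Bmp5 read 128 and 226 in Smad4-KO and 74.0 and 92.2 in WT (1.04 ± 0.39, adjusted p = 0.231). The mean log2 signal of Gdf2 in WT (5.43) lay under the filter, so Gdf2 was tested only through its signal in Smad4-KO and nothing is read from its direction; Bmp5 lay above the filter in both genotypes. Of the 3 Smad transducers tested 0 had an unadjusted p under 0.05. Smad4 is described above, and Smad5, which carries the BMP signal, had a difference of -0.23 ± 0.32 (adjusted p = 0.809).

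**Figure D4:**
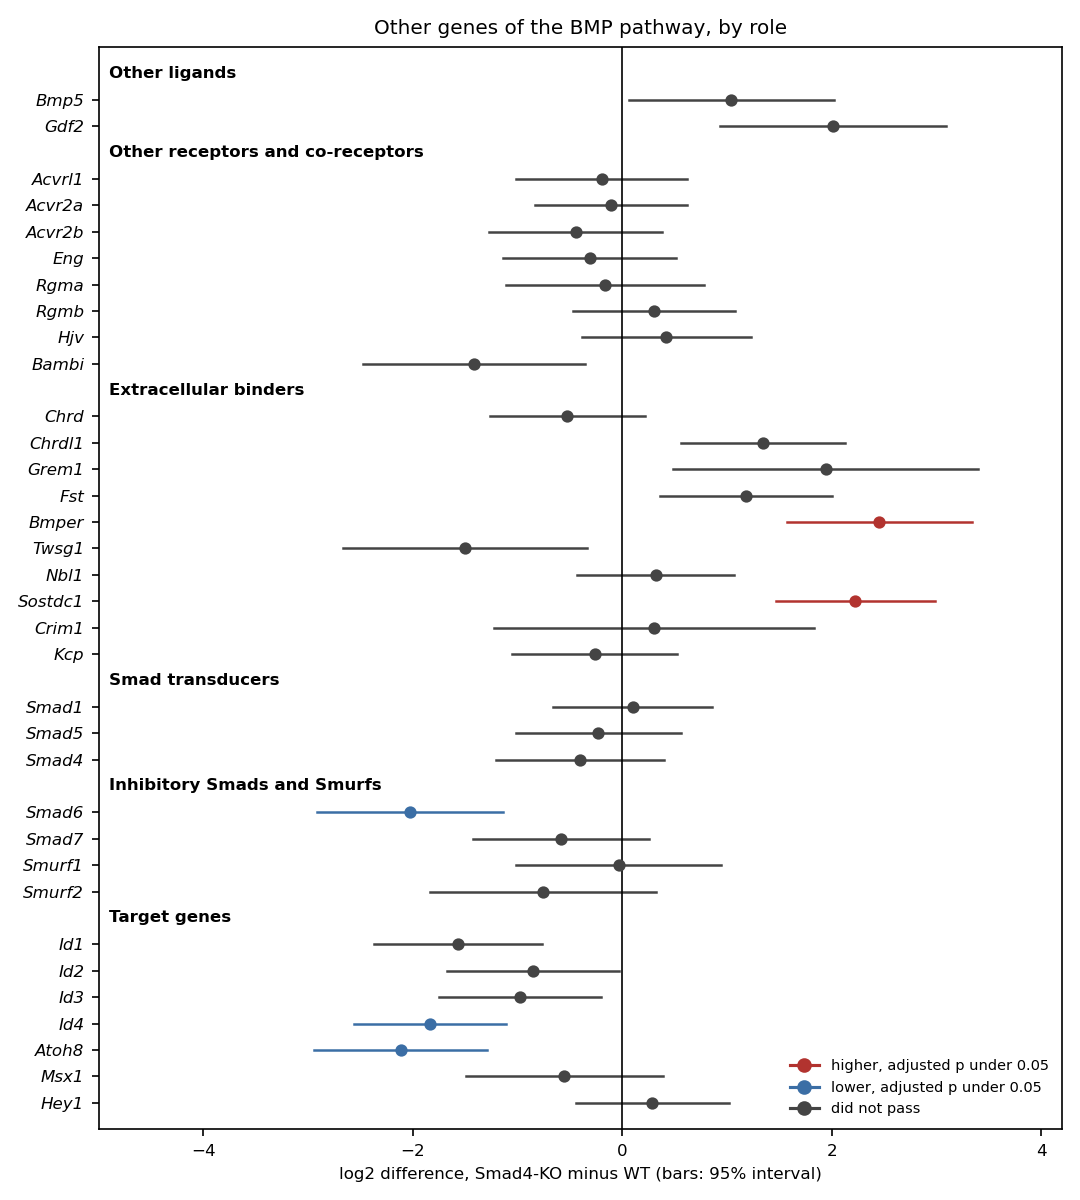
Log2 difference (Smad4-KO minus WT) with 95% intervals from limma for the 34 tested genes of the pathway outside the 8 members, by role; red marks the 2 genes called higher, blue the 3 called lower and grey those that did not pass. The called binders Bmper (2.46) and Sostdc1 (2.23) lie right of 0, and Smad6 (-2.03), Id4 (-1.84) and Atoh8 (-2.12) lie left of it.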

How the data were processed

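RNA from pools of aorta was measured on 4 Affymetrix arrays, 2 for Smad4-KO and 2 for WT, grouped by the titles. Signals were deposited as intensity per probe set, unlogged. RMA and Affymetrix Expression Console are named per the submitters' processing notes, without versions; the values are not on a log scale, and the mean after trimming 2% at each end is 500.0 on every array, which is not the form RMA gives. Neither detection calls nor a build are given. Of 45101 probe sets, 64 are controls, 932 have several symbols and 9160 none, and these were left out. Log2 signals were compared with limma 3.58.1 (R 4.3.3; lmFit, eBayes, two-sided, threshold 0.05), at gene level (the probe set of highest mean, genes under the 25th percentile left out, 13645 tested) and for every probe set (26209 tested). All 8 members, the pathway genes past the threshold or else the 2 of lowest p per list, and up to 2 called markers per cell type are named. Further Schwann cell markers, target genes and extracellular binders were named after their values were seen. The genes most like a called member were the 3 of smallest distance, with genes of provisional symbols (such as Gm or Rik numbers) left out. The listed symbol Hfe2 was matched through its synonym Hjv. Members, lists and tests were chosen with earlier results of these data known. The fit was tested on simulated data that follow its own variance model, so that test bears on the code and not on these arrays. Same-numbered arrays are not known to share animals, and their deviations from the genotype means correlated at -0.01 across genes. Alternatives changed the normalization, filter, probe set summary, variance model, array weights, floor, threshold, block and arrays. Promoters come from RefSeq (GRCm38.p6). Tables and figures used Python 3.11.15, pandas 2.3.3 and matplotlib 3.10.9.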

Additional observations from a re-analysis of the deposited data

How the results depend on the processing

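The log2 differences of Bmp2, Bmp4, Bmp6, Bmpr1a, Bmpr1b and Bmpr2 kept their sign under all 15 alternatives. Those of Bmp7 and Acvr1 did not, nor did those of some dim probe sets, and none of these passed a test. For the genes that kept their sign, the changes of filter, variance model, array weights, block, threshold and floor left the difference as it was. Their sign could turn only with the normalization, the probe set summary or an array left out. Bmp7 was 0.070 with signals under 64 raised to 64 and -0.69 to 0.65 with an array left out. Acvr1 was -0.49 to 0.067 with an array left out, its probe set 1416786_at -1.40 to 1.17 and 1416787_at -1.05 to 0.074. Bmpr2 probe set 1419616_at was -0.11 with quantile normalization, -0.13 with median centring and -0.40 to 0.56 with an array left out, and 1441652_at was -0.15, -0.14 and -0.050 to 0.19 in that order. The cause was not tested. Leaving out an array leaves 1 in its genotype, so the difference rests on that lone array. For the standard error and adjusted p the lone array is taken to vary as the other genotype does.

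Of the members, 1 was called lower. The number was 0 with no filter, with the mean of probe sets and with the labelling pairs as a block (an alternative chosen after seeing the data), 2 (Bmpr1a added) at an adjusted p of 0.10, and 0 to 1 with an array left out; without Smad4-KO replicate 1 that 1 was Bmp6. Member probe sets called lower numbered 1 with the filter at the 50th percentile and 1 at an adjusted p of 0.10 (Bmpr1b in both), against 0. Other pathway genes called higher numbered 2; the number was 0 with no filter and with the labelling block, 4 with the replicate block, 4 at an adjusted p of 0.10, 3 with the 50th percentile filter, 3 with trend and robust, and 0 to 2 with an array left out. Those called lower numbered 3; the number was 0 with no filter and with the labelling block, 1 with the mean of probe sets, 4 with the replicate block, with median centring, with trend and robust, with signals under 64 raised to 64 and at an adjusted p of 0.10, and 0 to 2 with an array left out. With the replicate number as a block, Bmpr1b stayed called (adjusted p = 0.00227) and 1 member was called lower, as without it. The other pathway genes added as higher with that block were Gdf2 and Grem1. At an adjusted p of 0.10 those added were Gdf2 and Chrdl1. Gdf2 and Grem1 were tested only through their signal in Smad4-KO, so nothing is read from their added calls. Chrdl1 lay above the filter in both genotypes (1.34 ± 0.31, adjusted p = 0.0759 in limma). Median centring moved the median of all genes to -0.22, so that members are read against that value (Bmpr1b -3.14, Bmpr1a -1.68, Bmp2 0.09).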

Other observations

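Acvr1 probe set 1416786_at split the arrays the way the labelling spike did and not by genotype. The Smad4-KO signals were 529 (replicate 1) and 89.5 (replicate 2), and the WT signals 118 (replicate 1) and 472 (replicate 2), so it was high on the 2 arrays with a low 3' to 5' ratio (3.62 and 2.96) and low on those with a high one (14.1 and 10.0). The replicates of a genotype differed by 2.57 in Smad4-KO and 2.01 in WT on the log2 scale, while the brightest Acvr1 probe set differed by 0.55 and 0.47. The part of labelling in this split was not tested.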
